A study of Mus musculus with 18 samples.

Results

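Glutathione S-transferases (GST), UDP-glucuronosyltransferases (UGT) and sulfotransferases (SULT) were read as 1 module in the livers of male CD-1 mice fed bisphenol A. The members were all genes whose name in the scanner files begins with Gsta, Gstk, Gstm, Gsto, Gstp, Gstt, Gstz, Mgst, Ugt1, Ugt2, Ugt3 or Sult and which had a probe that the scanner software marked as well above background on 6 or more arrays. Of 46 such genes named on the array, 43 were measured, among 17680 measured genes in all. They comprised 19 cytosolic GST, 2 microsomal GST, 3 UGT1, 9 UGT2, 2 UGT3 and 8 SULT genes. Gstk1, of the mitochondrial and peroxisomal kappa class, is counted with the cytosolic GST genes throughout. Mgst2, Sult2b1 and Sult3a1 were well above background on 3, 2 and 0 arrays and are not described further. CD-1 is an outbred stock with no engineered allele. All mice were 9 weeks old at the end and had eaten a powdered diet for 28 days, in which bisphenol A was absent (control) or mixed in to give about 50 (low dose) or 5000 (high dose) µg per kg body weight each day. Each group had 6 mice, with 1 piece of the large liver lobe and 1 array per mouse. Intake was set from an assumed food consumption and not measured in each animal, per the labels' protocols.

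Conjugation joins a polar group to a lipophilic compound so that transporters can carry it into bile or blood. GST enzymes add glutathione, UGT enzymes add glucuronic acid from UDP-glucuronate, and SULT enzymes add sulfate from the donor PAPS. The liver is a main site of all 3 reactions, and bisphenol A itself leaves the body largely as a glucuronide, with a smaller sulfate share. Many of these genes are known targets of the receptors CAR, PXR and AhR and of the oxidant-responsive transcription factor NRF2.

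Of the 43 members, 38 matched the RefSeq promoter table (build GRCm38.p6). The core of the antioxidant response element, TGACNNNGC, through which NRF2 acts, was searched on both strands of the 250 bases before each start. It was found in Gsta3, Gstm5, Gstm7 and Mgst1, and in 10.2% of all 32851 promoter entries. The windows of Gsta3 (chr1:21240434-21240523) and Mgst1 (chr6:138140437-138140526), both on the plus strand, are printed 5′ to 3′. They were picked because Gsta3 was among the members with the smallest p at each dose and Mgst1 was close to control. Those readings came from probes saturated on 14 and 8 arrays, so they do not show that the 2 genes responded differently. Capitals mark the core, which lies on the opposite strand in Mgst1, and a match is no proof of binding.
Gsta3: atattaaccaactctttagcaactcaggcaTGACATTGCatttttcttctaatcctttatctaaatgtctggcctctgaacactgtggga
Mgst1: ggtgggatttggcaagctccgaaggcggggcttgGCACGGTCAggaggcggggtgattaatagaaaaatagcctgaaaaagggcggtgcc

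The arrays of dosed mice were brighter than those of controls, and the part of brightness in the members' values was not tested. The 75th percentile of the intensity was 230 ± 43.1 (SD, n = 6) in controls, 295 ± 44.0 in the low-dose group and 292 ± 34.1 in the high-dose group. On the log2 scale the low-dose arrays were brighter than control by 0.37 and the high-dose arrays by 0.36 (2-sided exact permutation p = 0.0303 and 0.0173, 6 against 6 arrays). Control arrays sat at slide positions 1 and 4, low-dose arrays at 1 to 3 and high-dose arrays at 2 to 4, over 5 slides inferred from scan times. Levels below are log2 intensities minus the 75th percentile of the array. With limma and an adjusted p under 0.05, 43 of 17680 genes (0.243%) were called at the low dose, 0 (0.0%) at the high dose (1233 had an unadjusted p under 0.05) and 5 (0.0283%) between the doses. Of the 8 hepatocyte markers 6 were measured, and their summed level had a median of 10.35 in controls, 9.94 in low-dose mice and 10.01 in high-dose mice, with overlapping ranges. Of these 6, 5 were lower at each dose, 4 of them at an unadjusted p under 0.05, and those 4 (Alb, Fgb, Ahsg and Apoa1) were saturated on 17 or 18 arrays. The other 2, Cps1 and Ttr, saturated on none, differed by -0.13 and 0.11 at the low dose. The cholangiocyte markers, 5 of 6 measured, were higher in 5 of 5 cases at the low dose (median 0.45, none called) and in 4 of 5 at the high dose (median 0.25). The summed Kupffer cell and macrophage markers, 7 of 7 measured, had medians of 5.43, 5.62 and 5.87. In a piece of tissue, fewer cells of a type and less RNA per cell cannot be told apart. Since 4 of the 6 hepatocyte markers were saturated, their sum shows neither.

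At the low dose no member passed the test (limma, smallest adjusted p = 0.252). Of the 43 members, 36 had a log2 fold change below 0 against control, compared with 54.3% of all genes, and the median was -0.13 (all genes -0.02). The unadjusted p was under 0.05 for 3 members, all lower (Gsta3, Gstm1 and Gstp1, all from probes saturated on most or all arrays), against 6.57% of all genes lower and 5.02% higher at that p. Among the 38 members whose probe was saturated on no array, 31 were below 0, with a median of -0.12, and 0 had such a p. Cytosolic GST genes were below control in 16 of 19 cases and UGT2 genes in 9 of 9, whereas SULT genes were divided 4 to 4. The side of 0 rested on the background correction, since normexp correction put 5 of 43 members below control, with a median of 0.17. The cause of that turn was not tested, but it was shared by other bright genes. Of the 1768 genes with the highest mean level, 62.9% lay below control as reported and 7.47% after normexp.

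At the high dose no member passed the test either (smallest adjusted p = 0.684). The log2 fold change was below 0 for 29 of 43 members, compared with 51.0% of all genes, with a median of -0.10 (all genes -0.005). An unadjusted p under 0.05 was reached by 6 members, all lower, against 3.93% of all genes lower and 3.05% higher. These were Gstm3, Gstm1, Gstp1, Gsta3, Ugt2b34 and Ugt2b38, and the first 4 had probes saturated on 2, 12, 18 and 14 of the 18 arrays. With quantile normalisation, normexp correction or brightness as a covariate, 0 members were lower at that p at either dose. Among the 38 members never saturated, 24 were below 0 (median -0.07) and 2 had such a p. Of the 1768 genes with the highest mean level, 71.3% lay below control, a larger share than that of the members, whose median level stood at the 85.9th percentile of all genes. Normexp correction put 24 of 43 members below 0 (median -0.02, 59.6% of all genes) and brightness as a covariate 24 of 43 (median -0.01). The count also leaned on 1 animal, because without high-dose mouse 2 the members below control numbered 21 and their median was 0.004. Both dose groups were set against the same 6 controls, so the 2 comparisons are not independent. Among the 38 members never saturated, the 95% interval of the log2 fold change lay within -1 and 1 for 34 in the low-dose comparison and 33 in the high-dose one, that is, within a 2-fold change either way. A saturated probe can hide a change of that size.

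**Figure D1:**
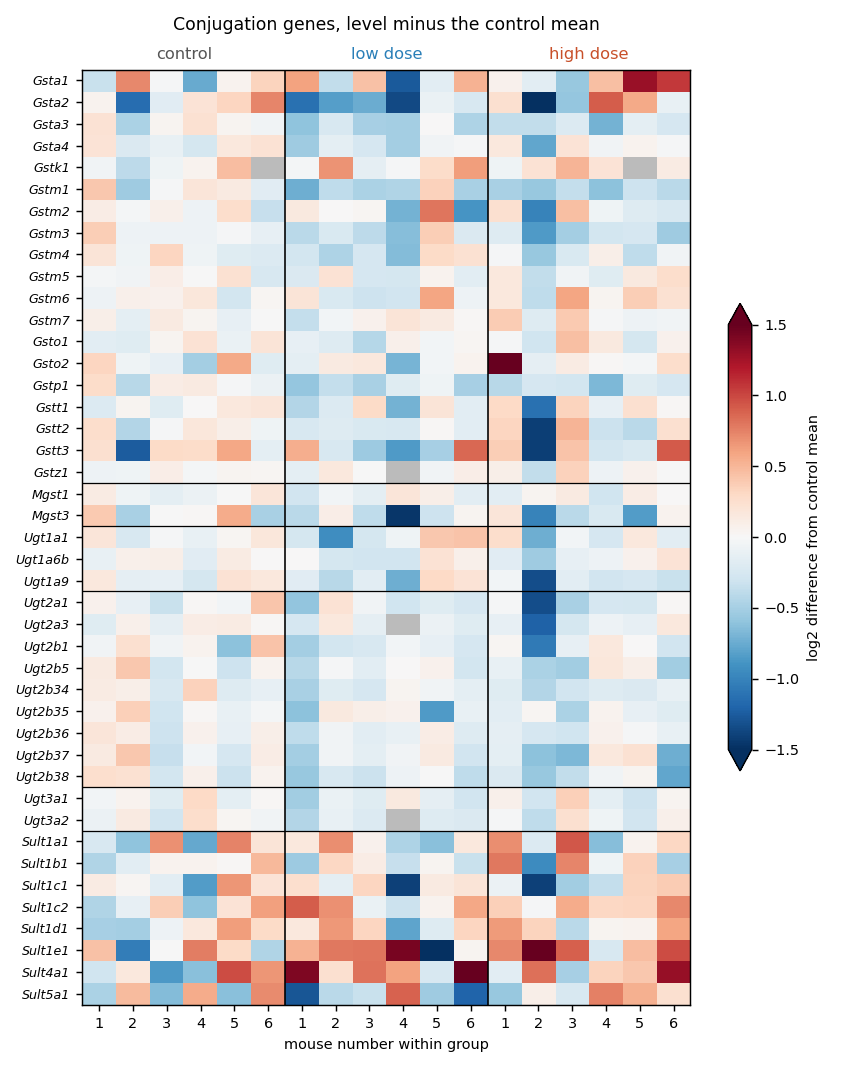
Level of each of the 43 members in each of the 18 mice, as the log2 difference from the mean of the 6 controls (colour, cut at -1.5 and 1.5, grey where the spot was dropped), with genes in rows by family and mice in columns by group. The UGT2 rows are mostly pale blue in both dose groups, high-dose mouse 2 is dark blue for several GST and UGT rows, and the SULT rows vary from mouse to mouse in all groups.

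**Figure D2:**
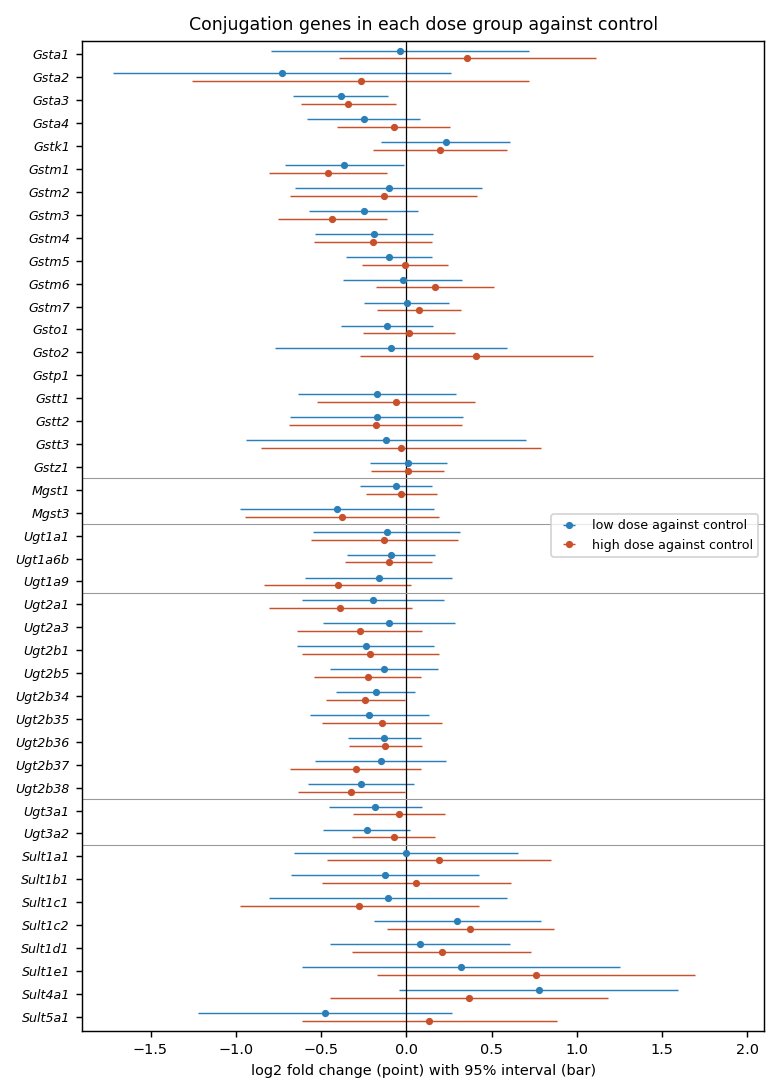
Log2 fold change of each member against control (point) with its 95% interval (bar) from limma, for the low dose (blue) and the high dose (red), 6 mice in each group. Most points lie just left of 0 and most bars cross it, and no member passed the adjusted threshold. The row of Gstp1 is empty because its probe was saturated on every array.

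Among the alpha class, Gsta3 is an abundant hepatic enzyme that conjugates aflatoxin epoxide in mice. Its level ran from 7.46 to 8.16 in controls (median 7.97), from 7.33 to 7.93 at the low dose (median 7.45) and from 7.22 to 7.79 at the high dose (median 7.62). The dosed mice were mostly below the controls, but all 3 ranges overlapped, and control mouse 2 at 7.46 lay among the dosed animals. The fitted log2 fold change was -0.39 (SE 0.13, limma adjusted p = 0.252) in low-dose mice and -0.34 (SE 0.13, adjusted p = 0.685) in high-dose mice. This probe was saturated on 14 of the 18 arrays, and before scaling its log2 intensity differed from control by only -0.019 and 0.015. A second Gsta3 probe, saturated on none, differed from control by -0.20 and -0.10.

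Gsta1 and Gsta2 encode inducible alpha-class enzymes, and each of their probes lists transcripts of both genes, so the 2 cannot be fully separated here. Gsta2 ran from -1.34 to 0.53 in controls (median -0.07), from -1.55 to -0.30 at the low dose (median -0.99) and from -2.83 to 0.71 at the high dose (median -0.14). The low-dose mice were crowded at the lower end of the control range, and the high-dose mice spanned more than the whole of it. The log2 fold change of Gsta2 was -0.73 (95% interval -1.72 to 0.26) in low-dose mice and -0.27 (-1.26 to 0.72) in high-dose mice. Without high-dose mouse 2 the high-dose value was 0.20. Gsta1 ran from 2.28 to 3.76 in controls (median 3.06), from 1.78 to 3.64 at the low dose (median 3.18) and from 2.47 to 4.33 at the high dose (median 3.30). These ranges overlapped widely, and the fold changes were -0.04 and 0.36 on the log2 scale. Gsta4, which clears the lipid peroxidation product 4-hydroxynonenal, differed by -0.25 and -0.07.

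The mu class held 2 of the members with the smallest p at the high dose. Gstm1, the main hepatic mu-class enzyme, ran from 7.88 to 8.81 in controls (median 8.47), from 7.68 to 8.76 at the low dose (median 7.95) and from 7.79 to 8.10 at the high dose (median 7.97). Low-dose mouse 5, at 8.76, lay above 5 of the 6 controls, and the other low-dose mice lay at or below 8.04. On the log2 scale the fold change was -0.36 (SE 0.16, limma adjusted p = 0.399) in low-dose mice and -0.46 (SE 0.16, adjusted p = 0.685) in high-dose mice, from a probe saturated on 4 arrays of each group. Before scaling, that probe differed from control by 0.002 and -0.10, and the unsaturated Gstm1 probe by -0.10 and -0.17. The other Gstm1 probe, saturated on none, gave -0.47 (SE 0.20, adjusted p = 0.331) and -0.52 (SE 0.20, adjusted p = 0.634). It was lower on average than the controls of the same slide on 4 of 4 slides that held both groups, for each dose. For this and the slide counts below, controls were on only 4 of the 5 slides, with few mice of a group on each. The same controls served both doses. The share of all genes or probes with such a count was not taken, so how unusual it is cannot be said.

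Gstm3, another mu-class enzyme, was the 1 member whose high-dose and control ranges, read from the brightest probe, did not overlap. It ran from 7.73 to 8.23 in controls (median 7.78), from 7.22 to 8.23 at the low dose (median 7.55) and from 7.01 to 7.67 at the high dose (median 7.47). Every high-dose mouse lay below every control, which held for 0.215% of all genes with a value on each array. That share counts this direction alone. Members were looked through in both directions, where 1 of 43 did not overlap, and the other direction was not counted over all genes. Its log2 fold change was -0.43 (95% interval -0.75 to -0.11, adjusted p = 0.684) at the high dose and -0.25 (-0.57 to 0.07, adjusted p = 0.574) at the low dose. The high-dose group was lower on 4 of 4 slides shared with controls, with differences from -0.77 to -0.31, and its probe was saturated on 2 high-dose arrays and no other. With array brightness as a covariate the high-dose value was -0.29. Before scaling, the log2 intensity of Gstm3 differed from control by -0.08 at the high dose and 0.12 at the low dose. The remaining mu-class genes had log2 fold changes between -0.19 (Gstm4) and 0.002 (Gstm7) at the low dose and between -0.19 (Gstm4) and 0.17 (Gstm6) at the high dose. Gstm6 ran from 1.84 to 2.28 in controls (median 2.17), from 1.80 to 2.70 at the low dose (median 1.96) and from 1.74 to 2.71 at the high dose (median 2.31), so that each dose group spanned the controls.

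Gstp1, the pi-class enzyme that is high in male mouse liver, was read at the ceiling of the scanner. Its brightest probe, which lists 2 RefSeq transcripts, was saturated on all 18 arrays, so no fold change is given for it. Before scaling, its log2 intensity was 15.82 ± 0.06 (SD, n = 6) in controls, 15.82 ± 0.04 in low-dose mice and 15.83 ± 0.04 in high-dose mice, a flat reading. After the 75th percentile was subtracted, the same probe had medians of 8.03, 7.57 and 7.72, with overlapping ranges (7.57 to 8.27, 7.41 to 7.93 and 7.31 to 7.81). The other Gstp1 probe was saturated on 2, 1 and 4 arrays of the 3 groups and differed by -0.31 (adjusted p = 0.373) and -0.28 (adjusted p = 0.693).

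Array brightness moved with these values from mouse to mouse. A probe at the ceiling gives a nearly constant reading, so subtracting the 75th percentile lowers its level on brighter arrays. For the saturated probes, this tracking and the covariate fit below were therefore set in part by the scaling, and neither shows what the RNA did. Control mouse 2 had the brightest control array (75th percentile 305) and the lowest control level of Gsta3, Gstm1 and Gstp1. Low-dose mouse 5 had the dimmest array of its group (228) and the highest level of Gsta3, Gstm1, Gstm3 and Gstp1. With brightness as a covariate the low-dose log2 fold change was -0.04 for Gsta3 (SE 0.09) and 0.07 for Gstm1 (SE 0.11), and at the high dose it was -0.008 and -0.03, all from probes saturated on most arrays. For the unsaturated Gstm1 probe the covariate left -0.32 (SE 0.24) in low-dose mice and -0.38 (SE 0.24) in high-dose mice. Normexp correction left that probe at -0.06 (SE 0.30) and -0.34 (SE 0.30).

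**Figure D3:**
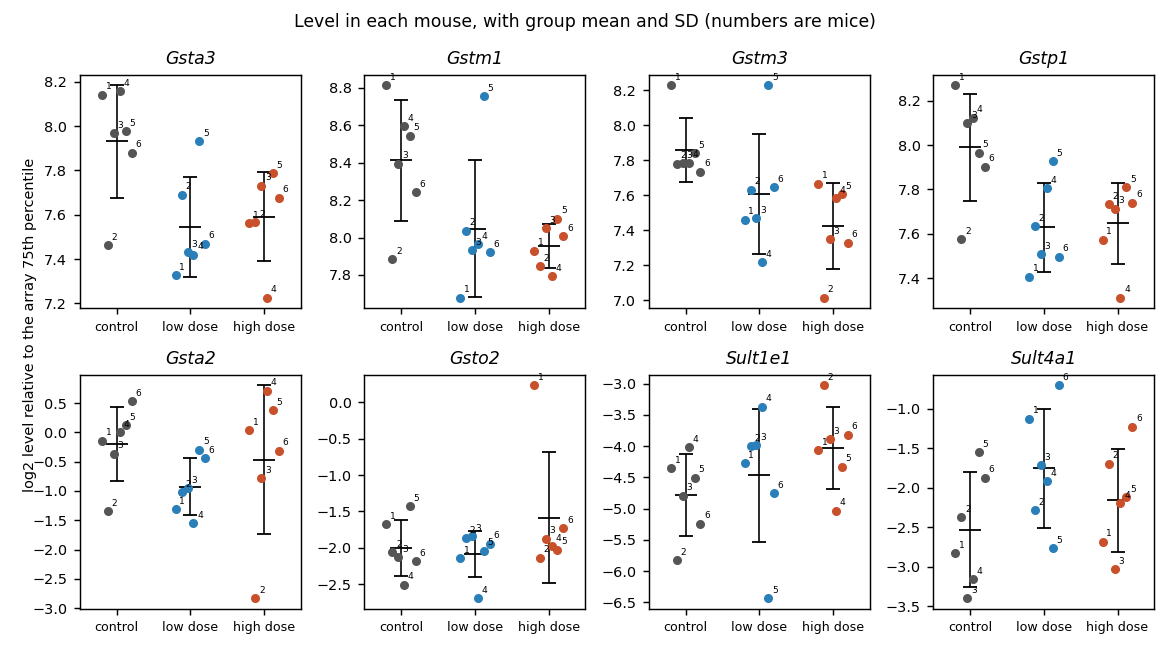
Level of 8 members in each mouse (points, numbered by mouse, log2 intensity relative to the 75th percentile of the array), with the group mean and SD (bars), 6 mice in each group. Control mouse 2 is the lowest control for Gsta3, Gstm1 and Gstp1, low-dose mouse 5 is the highest of its group for those genes and Gstm3, high-dose mouse 2 is lowest for Gsta2 at -2.83, and high-dose mouse 1 stands alone for Gsto2 at 0.23.

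No gene of the other cytosolic classes passed the test. Gsto2, an omega-class enzyme with dehydroascorbate reductase activity, ran from -2.51 to -1.43 in controls (median -2.09), from -2.69 to -1.84 at the low dose (median -1.99) and from -2.13 to 0.23 at the high dose (median -1.93). One high-dose animal, mouse 1, set the upper end, and the other 5 lay between -2.13 and -1.73. The log2 fold change at the high dose was 0.41 (95% interval -0.27 to 1.09) with that mouse and 0.05 without it. Gsto1, its neighbour on chromosome 19, differed by -0.11 and 0.01. The theta-class genes Gstt1, Gstt2 and Gstt3, whose enzymes act on small halogenated compounds, differed by -0.17, -0.17 and -0.12 at the low dose. At the high dose they differed by -0.06, -0.18 and -0.03, and these values became 0.15, 0.07 and 0.24 without mouse 2. Gstz1, the maleylacetoacetate isomerase of tyrosine breakdown, differed by 0.01 at each dose, with 95% intervals of -0.21 to 0.24 and -0.21 to 0.22. Gstk1, of the mitochondrial and peroxisomal kappa class, differed by 0.23 and 0.20.

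Microsomal GST genes encode membrane proteins of a separate fold. Mgst1 differed by -0.06 (95% interval -0.27 to 0.15) in low-dose mice and -0.03 (-0.24 to 0.18) in high-dose mice, with its probe saturated on 8 arrays. A second Mgst1 probe was saturated on all 18 arrays and gives no fold change. Mgst3 ran from -0.61 to 0.43 in controls (median -0.12), from -1.58 to -0.03 at the low dose (median -0.48) and from -1.14 to 0.05 at the high dose (median -0.45). Its log2 fold changes of -0.40 and -0.38 had 95% intervals that crossed 0, and the second Mgst3 probe gave -0.32 at each dose.

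UGT1 enzymes are made from 1 locus on chromosome 1, where alternative first exons are joined to shared later exons. Ugt1a1, the bilirubin-conjugating form, ran from 1.45 to 1.87 in controls (median 1.70), from 0.76 to 2.12 at the low dose (median 1.53) and from 0.96 to 1.96 at the high dose (median 1.59). Its probe lists 2 RefSeq transcripts, and whether it reads Ugt1a1 alone was not tested. The control range lay inside the range of each dose group. The log2 fold changes were -0.12 (95% interval -0.55 to 0.32) and -0.13 (-0.56 to 0.30). Ugt1a9 ran from 2.94 to 3.41 in controls (median 3.21), from 2.47 to 3.50 at the low dose (median 3.03) and from 1.86 to 3.16 at the high dose (median 2.93). Its log2 fold change of -0.40 at the high dose (adjusted p = 0.736) was -0.22 without mouse 2, which lay at 1.86.

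The 2 probes named Ugt1a6b read different parts of that locus. Ugt1a6 forms glucuronidate planar phenols. The brightest probe (mm8 chr1:90050068-90050127) lists 4 RefSeq transcripts of the locus and differed by -0.09 (SE 0.12) in low-dose mice and -0.10 (SE 0.12) in high-dose mice. The other probe (mm8 chr1:89938426-89938485) lists 1 transcript. Its level ran from 0.28 to 0.78 in controls (median 0.52), from -0.85 to 0.55 at the low dose (median -0.11) and from -0.43 to 0.19 at the high dose (median 0.07). All 6 high-dose mice and 5 of 6 low-dose mice lay below the lowest control. The share of all kept probes with such a separation was not counted, so how unusual it is cannot be said. The log2 fold changes were -0.65 (SE 0.18, limma adjusted p = 0.143) and -0.57 (SE 0.18, adjusted p = 0.574), and the probe was lower on 4 of 4 shared slides for each dose. It was saturated on no array, and its log2 intensity before scaling differed from control by -0.28 and -0.21. With brightness as a covariate it gave -0.50 and -0.43, and after normexp -0.47 and -0.43. None of these passed the adjusted threshold, and the probe was singled out after its values were seen.

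UGT2 genes encode enzymes for steroids, bile acids and phenols, and the rat UGT2B1 enzyme is known to glucuronidate bisphenol A. Ugt2b1 ran from 3.79 to 4.83 in controls (median 4.41), from 3.90 to 4.36 at the low dose (median 4.16) and from 3.35 to 4.57 at the high dose (median 4.35). All dosed mice lay within the control range except high-dose mouse 2, at 3.35. The fitted log2 fold change was -0.24 (95% interval -0.64 to 0.16, adjusted p = 0.690) in low-dose mice and -0.21 (-0.61 to 0.19, adjusted p = 0.853) in high-dose mice. These intervals hold no 2-fold change in either direction.

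The UGT2 genes as a group had a median log2 fold change of -0.18 at the low dose, with a range of -0.26 to -0.10, and of -0.24 at the high dose, with a range of -0.39 to -0.12. All 9 were below control in each comparison. With brightness as a covariate 9 of 9 were below control at each dose, with medians of -0.18 and -0.28, and with slide as a fixed block, or without high-dose mouse 2, the count was again 9 of 9. Normexp correction put 0 of 9 below control at the low dose and 8 of 9 at the high dose. The smallest p in the group belonged to Ugt2b34 and Ugt2b38 at the high dose. Ugt2b34 ran from 2.85 to 3.43 in controls (median 3.06), from 2.61 to 3.13 at the low dose (median 2.92) and from 2.64 to 2.97 at the high dose (median 2.88). It differed by -0.18 (SE 0.11, adjusted p = 0.574) and -0.24 (SE 0.11, adjusted p = 0.707). Ugt2b38, whose probe also lists transcripts of Ugt2b37 and Ugt2b5, ran from 6.53 to 7.10 in controls (median 6.92), from 6.29 to 6.84 at the low dose (median 6.57) and from 6.08 to 6.90 at the high dose (median 6.56). The groups overlapped, and it differed by -0.26 (adjusted p = 0.532) and -0.32 (adjusted p = 0.707). Near-identical copies in this cluster may share signal, so the 9 genes are not 9 separate measurements. Ugt2a3 and Ugt2a1 differed by -0.27 and -0.39 at the high dose, where mouse 2 was the lowest at 4.11 and 2.09.

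UGT3 enzymes use sugars other than glucuronic acid. Ugt3a1 differed by -0.18 (95% interval -0.45 to 0.09) and -0.04 (-0.32 to 0.23). Ugt3a2 ran from 4.91 to 5.46 in controls (median 5.19), from 4.76 to 5.09 in the 5 low-dose mice with a value (median 5.00) and from 4.82 to 5.44 at the high dose (median 5.15). Its log2 fold change was -0.23 (adjusted p = 0.492) in low-dose mice and -0.07 (adjusted p = 0.933) in high-dose mice. A dimmer Ugt3a2 probe gave -0.52 (SE 0.14, adjusted p = 0.141) and -0.35 (SE 0.14, adjusted p = 0.642), with control levels from 0.43 to 1.14 and low-dose levels from -0.16 to 0.50. After normexp it gave -0.25 and -0.16, and with brightness as a covariate -0.45 and -0.29.

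**Figure D4:**
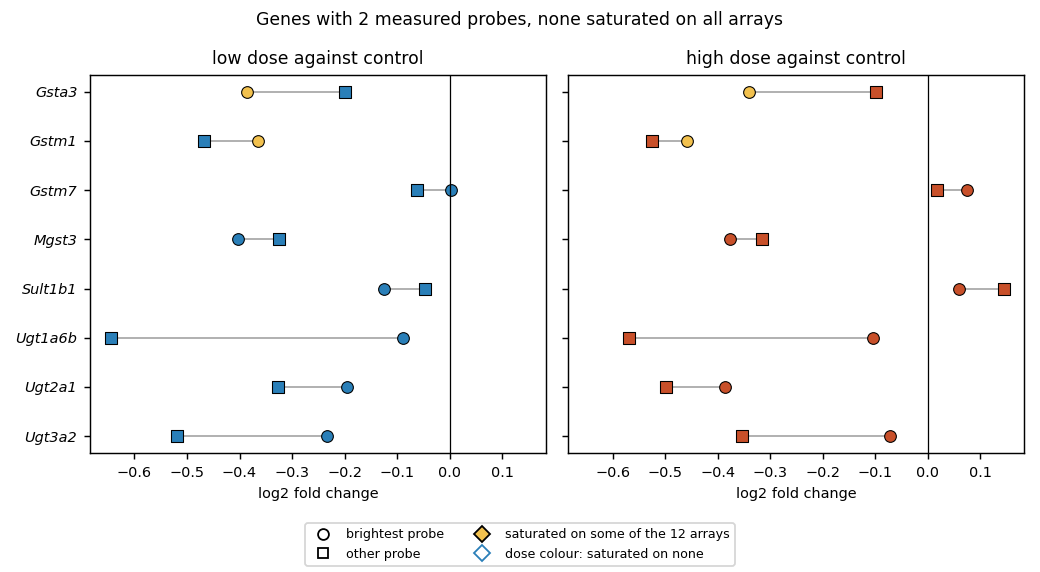
Log2 fold change against control for 8 of the 10 members with 2 measured probes (circle, brightest probe; square, other probe; yellow, saturated on some of the 12 arrays compared; dose colour, on none), leaving out Gstp1 and Mgst1, which each have a probe saturated on every array, low dose left and high dose right. The 2 probes fell on the same side of 0 for 7 of 8 genes at the low dose and for 8 of 8 at the high dose, and the widest gaps were in Ugt1a6b and Ugt3a2.

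At the high dose 7 of 8 SULT genes lay above control, with a median log2 fold change of 0.20, and none passed the test. Sult1a1, the phenol sulfotransferase, ran from 3.89 to 5.40 in controls (median 4.63), from 4.03 to 5.35 at the low dose (median 4.77) and from 4.02 to 5.59 at the high dose (median 4.84). Its ranges all but coincided, and its log2 fold changes were -0.002 (95% interval -0.66 to 0.66) and 0.19 (-0.47 to 0.85). Sult1e1, the estrogen sulfotransferase, was dim and was well above background on 3 of 6 control, 5 of 6 low-dose and 5 of 6 high-dose arrays. It ran from -5.83 to -4.01 in controls (median -4.65), from -6.43 to -3.36 at the low dose (median -4.14) and from -5.03 to -3.03 at the high dose (median -3.98). On the log2 scale the fold change was 0.32 (-0.61 to 1.25) in low-dose mice and 0.76 (-0.17 to 1.69, adjusted p = 0.769) in high-dose mice. The high-dose group was higher than the controls of the same slide on 4 of 4 slides, by 0.43 to 2.80. High-dose mouse 4, the lowest of its group at -5.03, was on a slide without controls and is not in that count. The 2.80 set high-dose mouse 2, the highest of its group, against control mouse 2, the lowest control.

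Sult4a1, a brain-type member of the family with little known catalytic activity, had the largest log2 fold change above 0 at the low dose. It ran from -3.39 to -1.55 in controls (median -2.60), from -2.76 to -0.71 at the low dose (median -1.82) and from -3.03 to -1.23 at the high dose (median -2.16). Low-dose mice 1 and 6 lay above every control, and the others lay within the control range. Its log2 fold change was 0.78 (95% interval -0.04 to 1.59, adjusted p = 0.469) in low-dose mice and 0.37 (-0.45 to 1.19, adjusted p = 0.880) in high-dose mice. Sult5a1 ran from 1.12 to 2.49 in controls (median 1.78), from 0.50 to 2.66 at the low dose (median 1.31) and from 1.21 to 2.54 at the high dose (median 1.95). It differed by -0.48 and 0.14. The thyroid-hormone and phenol enzyme gene Sult1b1 differed by -0.13 and 0.06, Sult1c1 by -0.11 and -0.27, Sult1c2 by 0.30 and 0.38, and the catecholamine enzyme gene Sult1d1 by 0.08 and 0.21. Sult2a8 and Gstp3, which the array carries under other names and which the name rule therefore leaves out, differed by -0.14 and -0.58 at the low dose and by 0.13 and -0.14 at the high dose, none past the threshold.

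Set against each other, the doses did not separate any member (smallest adjusted p = 0.754), and 0 of 43 had an unadjusted p under 0.05, where 4.02% of all genes were lower and 3.67% higher at that p. The log2 fold change of high over low dose was below 0 for 18 of 43 members, compared with 45.4% of all genes, with a median of 0.03. Normexp correction turned that direction, with 35 of 43 below 0 and a median of -0.11, and without high-dose mouse 2 the count was 11 of 43. Sult5a1 had the largest difference, 0.61 (95% interval -0.13 to 1.36), with low-dose mice 1 and 6 at the bottom of all groups and overlapping ranges. Gsto2 followed with 0.50, which was 0.14 without high-dose mouse 1. Ugt3a2, Gstm6 and Gstm3 differed by 0.16, 0.19 and -0.18, and Ugt1a9 by -0.24. The 95% interval lay within a 2-fold change either way for 32 of the 38 members never saturated.

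One high-dose animal stood apart. Of the 39 members with a value on every array, 23 had their lowest high-dose level in mouse 2, against 28.3% of all 17210 genes so measured. These were 13 of 17 cytosolic GST genes and 3 of 3 UGT1 genes, but 3 of 8 UGT2 genes. Its median member lay 0.47 below the control mean on the log2 scale, and its median gene 0.09 below. The Kupffer cell and macrophage markers were 1.49 above the control mean in this mouse (median of 7 genes), the highest of the 18 mice. Its endothelial markers had the lowest median of the 18 mice, at -0.63. The stellate and cholangiocyte markers of this mouse had medians of -0.55 and -0.25. Its hepatocyte markers stood at -0.38, within the range of other dosed mice (-0.61 to -0.06). Most of those hepatocyte markers were saturated, as given above, so that value does not show the hepatocyte content of this mouse. Its array was not the brightest (75th percentile 280). Whether the cell markers or the array had a part in the low member levels was not tested. At the low dose, mice 1 and 4 held the lowest level of 17 and 13 members (43.6% and 33.3% of 39, against 26.4% and 19.7% of all genes). Among controls mouse 2 held 12 (30.8%, against 21.4%).

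The spread between mice of 1 group was largest for Gsta2 and Sult1e1. The residual SD of the model was 0.87 for Gsta2 and 0.82 for Sult1e1, above the 90th percentile of all genes (0.74), and 0.31 for the median member (0.29 for the median gene).

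**Figure D5:**
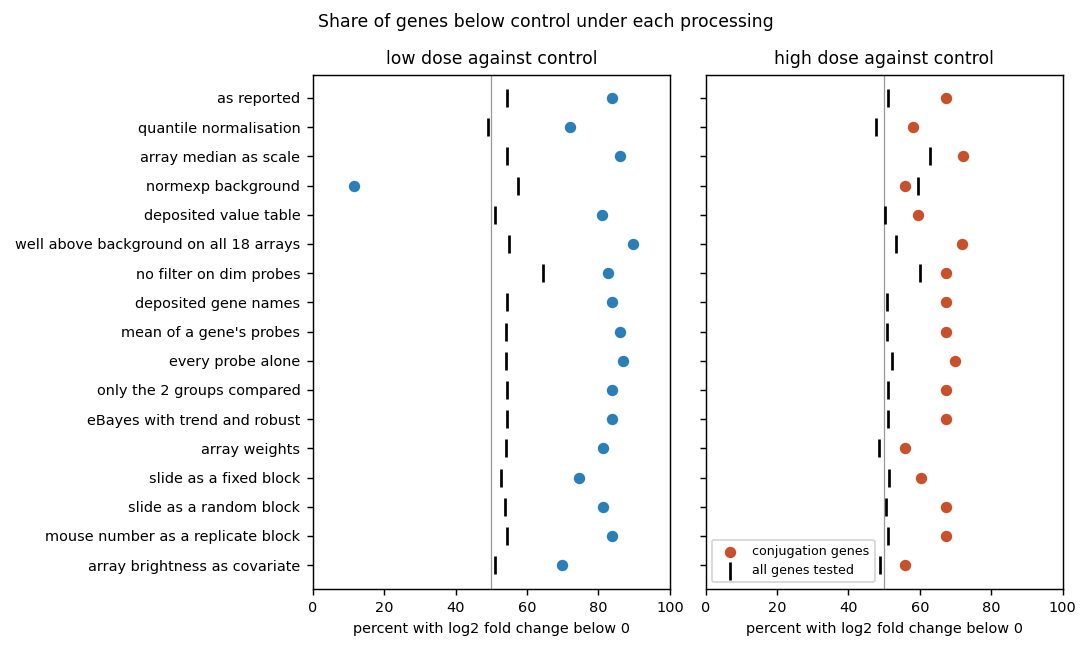
Percent of members (points) and of all genes tested (ticks) with a log2 fold change below 0 against control, for the reported processing and 16 alternatives, low dose left and high dose right. The members lie above the all-gene share in every low-dose row except normexp correction, where 5 of 43 were below 0, and above it in every high-dose row except normexp, by less.

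The genes that supply, use and regulate these enzymes gave no call in either dose group. Of 19 genes for glutathione, UDP-glucuronate and PAPS supply, 17 were measured and 0 passed. Gss, glutathione synthetase, differed by -0.43 (limma adjusted p = 0.199) and Cth, which makes cysteine, by -0.42 (adjusted p = 0.391) at the low dose, while the sulfate carrier gene Slc26a1 differed by 0.39 (adjusted p = 0.254). At the high dose Gclc, the rate-limiting enzyme of glutathione synthesis, differed by -0.43 (adjusted p = 0.685), and the PAPS transporter gene Slc35b3 and the PAPS synthase gene Papss2 by 0.34 and 0.31. The medians of this list were -0.04 and -0.06. Among 17 of 17 regulators measured, 0 passed. Nr1i3, which encodes CAR, differed by -0.78 (SE 0.26, adjusted p = 0.230) in low-dose mice and -0.25 in high-dose mice. Nr1h4, which encodes the bile acid receptor FXR, differed by -0.36 (adjusted p = 0.159) at the low dose and by 0.45 (adjusted p = 0.170) between high and low dose. Bach1, a repressor of NRF2 targets, differed by 0.60 (adjusted p = 0.213) at the low dose.

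Target genes outside the families were also without a call. Of 10 NRF2 targets 0 passed, with Pgd at 0.67 (adjusted p = 0.089) and Ephx1 at -0.78 (adjusted p = 0.231) at the low dose, and Ephx1 at -0.90 (adjusted p = 0.641) at the high dose. Nqo1, a standard NRF2 readout, differed by 0.40 at the high dose (adjusted p = 0.772). Of 10 CAR and PXR targets 0 passed, with Cyp2b10 at 0.80 and 0.85 and Cyp3a11 at -0.71 at the high dose. Of 7 AhR targets 4 were measured and 0 passed, with Cyp1a2 at -0.74 (adjusted p = 0.159) at the low dose. Among 12 of 13 export and uptake genes 0 passed, with Abcc3, which exports glucuronides to blood, at -0.44 (adjusted p = 0.503) at the low dose and Abcc2, which exports them to bile, at 0.26 (adjusted p = 0.707) at the high dose. The other conjugating enzymes (11 of 11 measured) and the deconjugating enzymes (10 of 10) had 0 calls and medians of -0.08 and -0.06 at the low dose and of -0.06 and -0.05 at the high dose. Male-biased liver genes, which like several members respond to the sex pattern of growth hormone, had a median of -0.36 in low-dose mice and -0.20 in high-dose mice over 12 genes, with Mup1 saturated on all 18 arrays, and female-biased genes had medians of -0.0005 and 0.13 over 11.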

How the data were processed

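RNA from 18 livers was hybridised, 1 mouse per 1-colour Agilent array. The deposited intensity values are per the file headers the spot signal after background subtraction by Agilent Feature Extraction, not normalised between arrays, with the mean and local background intensity beside it. The deposited value table holds log2 values for 22514 probes, with array medians from 7.91 to 7.94. Its steps are not given in the sources used here, and per the submitters' processing notes the tools were limma and Agilent Feature Extraction 9.5.

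Control and outlier spots were dropped and repeated spots averaged. Log2 intensities were scaled by subtracting the 75th percentile of each array. Probes well above background on at least 6 arrays were kept (25421), and the probe with the highest mean stood for its gene. Symbols were updated through transcript accessions for 17130 kept probes, with RefSeq names of GRCm38.p6. Probe coordinates are on mm8.

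Groups were compared with limma 3.58.1 in R 4.3.3, all 18 arrays in 1 model, 2-sided, with Benjamini-Hochberg adjustment over all genes and a threshold of 0.05. Fold changes are log2 differences, low or high dose minus control unless stated. The test was checked on simulated data. The members and lists were chosen with earlier results of these data known. Group values are given for members with the 6 smallest p or 4 largest changes in a comparison and for 8 well-known members, and other members by their fold changes. The labels name separate mice, and the shared mouse numbers did not pair them (correlation of same-numbered mice from -0.31 to 0.35, above 0.1 in 8 of 18 pairs). The number of mice limits the precision. Alternatives were other scalings, background corrections, filters, blocks, covariates and leaving out each mouse. Alternatives for the other probes of Gstm1, Ugt1a6b and Ugt3a2, and counts by saturation, were added after the data were seen. A search of the promoters for 1 other motif is not reported here.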

Additional observations from a re-analysis of the deposited data

Results flagged for a closer look

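In 13 of 129 sets of up to 6 mice (43 members in 3 groups), 1 mouse stood apart from the others by Dixon's criterion at the 95% level, where chance gives about 1 in 20 for independent sets. Sets that share a mouse are not independent. The share of all genes so flagged was not counted, so the 13 cannot be read as a trait of the members. Of the 13, 6 were the lowest value of high-dose mouse 2, at 0.97 for Gsta4 (the others at 1.69 to 1.95), 0.63 for Gstt1, 1.86 for Ugt1a9, 2.09 for Ugt2a1, 4.11 for Ugt2a3 and 3.35 for Ugt2b1. High-dose mouse 1 was high for Gsto2 at 0.23. At the low dose, mouse 4 was low for Gsto2 at -2.69, Mgst3 at -1.58 and Sult1c1 at -1.17, and mouse 5 was high for Gstm1 at 8.76 and Gstt2 at 2.75. Among controls, mouse 1 was high for Gstm3 at 8.23, with the other 5 at 7.73 to 7.84.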

How the results depend on the processing

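No member was called in any comparison under any of the 34 alternatives (16 settings and 18 single mice left out), and the smallest adjusted p of a member was 0.109 for the low dose, 0.461 for the high dose and 0.347 between doses. The count of all genes called at the low dose (43) was 16 with normexp correction, 8 when arrays were scaled by their medians, 86 with probes well above background on all arrays, 9 with no filter, 15 with the mean of a gene's probes, 79 with only the 2 groups, 80 with a trended robust fit, 144 with array weights, 2 with slide as a fixed block, 0 with brightness as a covariate and 2 to 73 without single mice. Between doses (5) it was 8 with probes above background on all arrays, 1 with no filter, 11 with every probe alone, 0 with only the 2 groups, 13 with array weights, 0 with slide as a fixed block and 1 to 9 without single mice. With the mouse number as a replicate block, 5, 0 and 0 genes and 0, 0 and 0 members were called for low dose, high dose and between doses, and the numbers did not pair the mice. The cause of these shifts was not tested.

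Leaving out single mice moved the count of members below 0 at the low dose from 36 to between 30 and 38. For the 19 members given by mouse, 26 of 283 low-dose values and 7 of 283 high-dose values under other settings changed sign, none of them a call. Saturation limits Gstp1, Gsta3, Gstm1 and Mgst1, and dim signal limits Sult1e1.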
